A study of Equus caballus with 68 samples.

Results

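Chemokines of the CXC and CX3C families and their receptors guide leukocytes through bone marrow, blood and inflamed tissue. A chemokine binds a receptor with 7 membrane-spanning segments on the surface of a leukocyte, and the receptor passes the signal to inhibitory G proteins that turn the cell toward the source. The same receptors keep cells in place: CXCL12, made by marrow stromal cells, holds haematopoietic cells in the marrow through CXCR4. The genes considered were the ligands CXCL8 (the neutrophil attractant interleukin 8), CXCL10 (an interferon-induced attractant of activated T cells), CXCL12 (stromal cell-derived factor 1) and CXCL16 (a membrane-bound ligand and scavenger receptor of macrophages), and the receptors CXCR2 (a receptor for CXCL8), CXCR3 (the receptor for CXCL10), CXCR4 (the receptor for CXCL12) and CX3CR1 (the fractalkine receptor of monocytes and cytotoxic lymphocytes). They were taken by gene symbol from the expression table. The files name each row by an Ensembl identifier, ENSECAG00000015342 for CXCL8, ENSECAG00000013300 for CXCL10, ENSECAG00000019551 for CXCL12, ENSECAG00000018406 for CXCL16, ENSECAG00000023587 for CXCR3, ENSECAG00000003837 for CXCR4 and ENSECAG00000004442 for CX3CR1. Levels are in GeTMM, reads per kilobase of gene length after between-library scaling. The lengths recovered from the values ran from 282 bases (CXCL12) to 1525 (CXCL8), and some may cover coding sequence only. Levels of different genes can therefore be set side by side only roughly. Of the 8 genes, 7 had a row among the 30371 rows of the table, and all 7 passed the filter on low values. No row carried the symbol CXCR2, and it was not analysed here.

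Bone marrow mononuclear cells (BMNC) of 8 Thoroughbred horses aged 3 to 9 years (2 mares and 6 geldings) were sequenced at 0 hours, uncultured (8 libraries), and after growth in undiluted synovial fluid of the same horse. The fluid was either normal (SF) or inflamed (ISF), the latter taken after lipopolysaccharide had been injected into a joint. There were 7 horses per fluid at 48 hours and at 10 days, 8 horses per fluid at 96 hours and at 6 days, and 68 libraries in all, each cultured one from a single well. ISF came from the radiocarpal joints and SF from the middle carpal joints, so inflammation and the joint of origin cannot be told apart.

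Libraries held 15.7 to 36 M reads on genes. The 6 day SF library of Moon stood apart, with a GeTMM sum of 2.32 M against 0.82 to 1.46 M in the other 67 libraries. By the 200 genes that separated the horses best, 66 of 68 libraries lay closest to their own horse, and the 2 exceptions were both ISF libraries at 96 hours, that of Dealings resembling Dreamer (r = 0.929) and that of Dreamer resembling Dealings (r = 0.928). Values within horses at 96 hours therefore take these labels as given, and the counts of called genes are also given without these libraries. Marker lists are given as the mean log2(GeTMM + 1) over their genes. Between 0 hours and 10 days the macrophage list (MSR1, MRC1, CD163, CD68, TREM2, SPP1 and GPNMB) went from 3.65 to 4.61 across libraries to 10.74 to 11.47 in ISF and 10.46 to 10.80 in SF. The neutrophil precursor list went from 9.65 to 10.64 to 0.16 to 3.16 in ISF and 0.39 to 7.31 in SF, the erythroid list from 3.49 to 7.30 to 0.18 to 0.38 and 0.18 to 0.42 (with ALAS2 at 0 in all ISF libraries of that time), and the B cell list from 3.40 to 4.62 to 0.40 to 1.54 and 1.16 to 4.53. BMNC were thus a mixture whose makeup moved with time and fluid, and fewer cells of a type and less RNA per cell cannot be told apart in any value that follows.

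Between the fluids, the receptors CXCR3, CXCR4 and CX3CR1 were lower in ISF from 96 hours on and CXCL8 was higher from 6 days on. A gene was called when its false discovery rate (FDR, Benjamini-Hochberg over the 14570 genes tested) was under 0.05 in limma on log2(GeTMM + 1), and fold changes are differences on that log2 scale with their standard error (SE). At 48 hours 0 of 7 genes were called, 1 (CXCR3) had an unadjusted p under 0.05, and voom on the recovered reads also called 0. At 48 hours 1.68% of all genes tested were called. At 96 hours CXCR3, CXCR4 and CX3CR1 were called, all lower in ISF (3 of 7, against 10.5% of all genes), and only 1 of them, CXCR3, was called when the 2 doubtful 96 hour libraries were left out, without the horse Dealings or without the horse Ollie. At 6 days the same 3 receptors were lower and CXCL8 was higher (4 of 7, against 30.2%). At 10 days CXCL12 joined the genes lower in ISF (5 of 7, against 20.8%). The median log2 fold change over the 7 genes was -0.35, -0.53, -0.87 and -1.28 at the 4 times, while the median over all genes tested was -0.02, -0.00, 0.00 and -0.02.

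**Figure D1:**
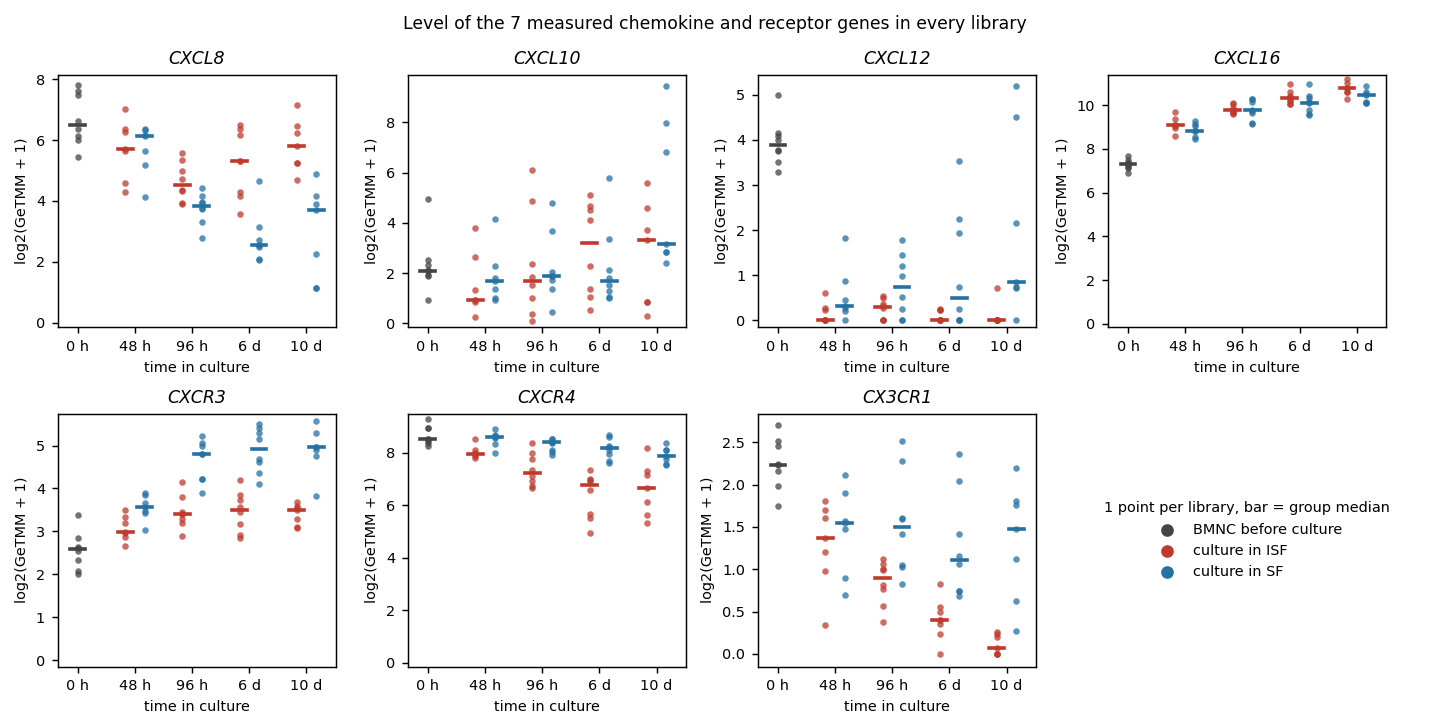
Level of each gene as log2(GeTMM + 1) against time in culture, with 1 point per library and a bar at the group median, in grey before culture, red in ISF and blue in SF. CXCL16 climbed in both fluids from a median of 155 GeTMM to 1766 in ISF and 1420 in SF at 10 days. CXCR3, CXCR4 and CX3CR1 were called lower in ISF than in SF at 96 hours, 6 days and 10 days.

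CXCL8 was the only one of the 7 genes called higher in ISF than in SF in the limma fit. Before culture its lowest, median and highest levels were 42.3, 89.8 and 226 GeTMM. At 48 hours the levels were 18.7, 51.3 and 129 in ISF and 16.4, 69.7 and 81.9 in SF. At 96 hours they were 13.8, 22.3 and 46.4 in ISF and 5.92, 13.4 and 20.7 in SF. The medians at 96 hours were below those at 48 hours in both fluids, and the ranges of the fluids overlapped at both times. At 6 days the levels were 10.8, 38.4 and 88.0 in ISF against 3.13, 4.84 and 24.5 in SF, and at 10 days 25.1, 55.5 and 141 in ISF against 1.20, 12.03 and 28.4 in SF. Of the ISF libraries, 5 of 8 at 6 days and 6 of 7 at 10 days lay above every SF library of that time.

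ISF exceeded SF for CXCL8 in 5 of 7 horses at 48 hours, 1 of them RimRun, where the log2 difference rounded to 0.00. ISF was higher in 8 of 8 horses at 96 hours and at 6 days, and in 7 of 7 at 10 days. The log2 fold change was -0.00 ± 0.48 (SE) at 48 hours and 0.87 ± 0.45 at 96 hours (FDR = 0.230), and neither was called. With only the groups compared in the fit, the 96 hour value was called (FDR = 0.0328). The log2 fold change was 2.42 ± 0.45 at 6 days (FDR = 2.76e-05) and 2.81 ± 0.48 at 10 days (FDR = 1.28e-05). The difference between the fluids was larger at 10 days than at 48 hours by 2.81 ± 0.68 (interaction, FDR = 0.0114), where 2.99% of all genes were called. That call was lost without Catnip (2.24, FDR = 0.127), without Dreamer (2.69, FDR = 0.0545) or without RimRun (2.43, FDR = 0.0579). Over time, CXCL8 decreased by 1.93 ± 0.47 in SF between 48 and 96 hours (FDR = 0.00102, lower in 7 of 7 horses) and by 3.66 ± 0.47 from 0 hours to 10 days (FDR = 4.27e-10, 7 of 7 horses). In ISF the net change of -0.85 ± 0.47 was not called (FDR = 0.0955, lower in 6 of 7 horses), but was without RimRun (-1.09, FDR = 0.0439). The net changes in ISF and in SF share the same 0 hour libraries, here and for the other genes.

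CXCL1, a neutrophil attractant that acts on the same receptor as CXCL8, was also called higher in ISF, by 0.96 ± 0.32 at 96 hours (FDR = 0.0408), 1.97 ± 0.32 at 6 days (FDR = 2.24e-06) and 1.38 ± 0.34 at 10 days (FDR = 0.00220). The 96 hour call was lost under 11 of 18 alternatives, among them when the 2 doubtful ISF libraries (Dealings and Dreamer) were left out (0.69, FDR = 0.233). Its median at 6 days was 86.6 GeTMM in ISF and 20.3 in SF. The handling of reads shared with near-identical CXC ligands was not examined, so the levels of CXCL1 are uncertain. Of 11 NF-kappaB-induced inflammatory genes (IL1B, IL6, TNF, NFKBIA, TNFAIP3, PTGS2, IL1A, CCL20, SOD2, BIRC3 and ICAM1), 0, 1, 2 and 0 were called higher in ISF at the 4 times and none were called lower, where 1.68%, 10.5%, 30.2% and 20.8% of all genes were called, so the list was called no more often than the table as a whole. They were ICAM1 at 96 hours (1.10 ± 0.20, FDR = 8.20e-05) and at 6 days (1.07 ± 0.20, FDR = 2.43e-05), and TNF at 6 days (1.36 ± 0.23, FDR = 3.55e-06). The median log2 fold change of the list was -0.02, 0.06, 0.29 and 0.05. In the deviations of the 68 libraries from their group means, the genes most like CXCL8 were SLC2A6 (Pearson r = 0.519), TBC1D9 (0.503) and HSD11B1 (0.495), which regenerates active glucocorticoid, while the mean of the NF-kappaB-induced list had r = 0.42.

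**Figure D2:**
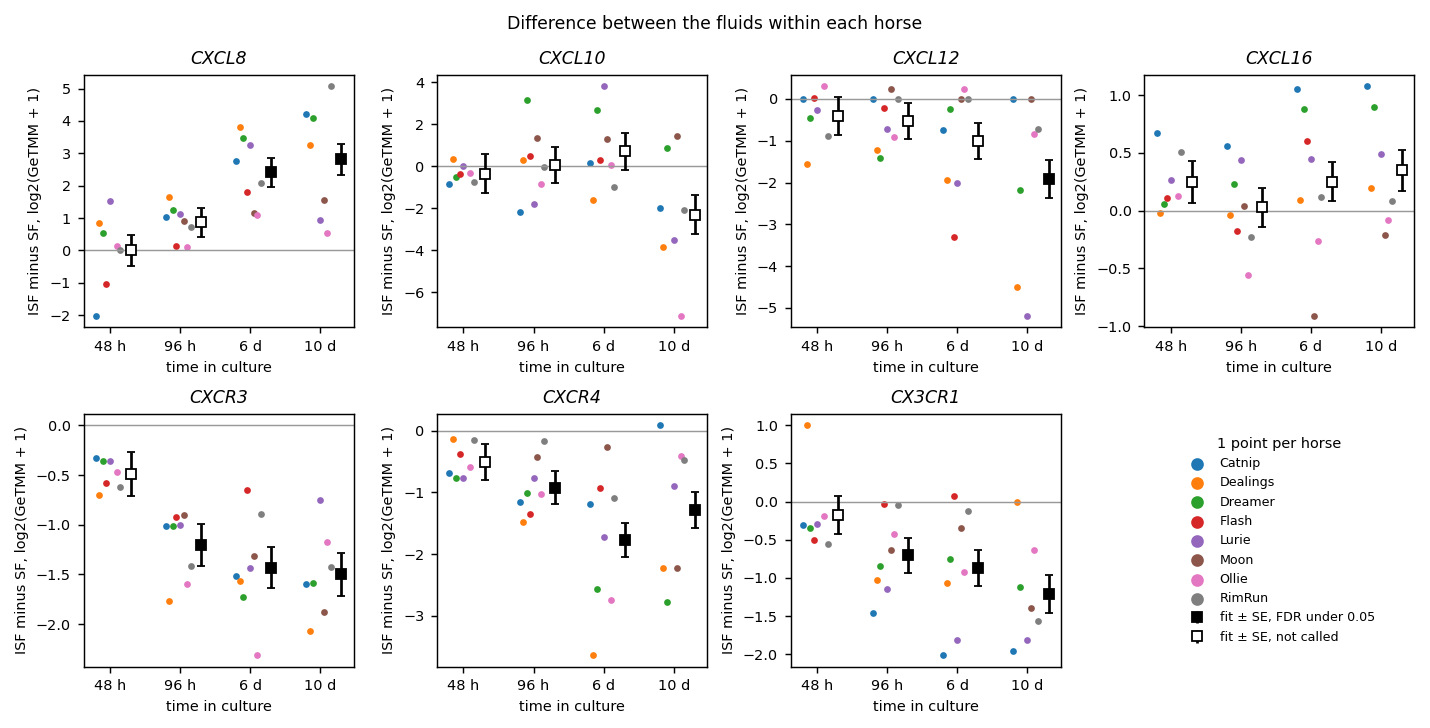
ISF minus SF in log2(GeTMM + 1) for each horse (coloured points) against time in culture, with the limma estimate and its SE as a black square, filled where the FDR was under 0.05. CXCL8 lay above 0 in every horse from 96 hours on, and CXCR3 lay below 0 in every horse at all 4 times.

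CXCL10 varied widely between horses, and no difference between the fluids was called. In uncultured BMNC the lowest, median and highest levels were 0.894, 3.28 and 29.8 GeTMM. At 48 hours they were 0.193, 0.929 and 12.9 in ISF and 0.888, 2.23 and 16.6 in SF. By 96 hours they were 0.0586, 2.22 and 67.5 in ISF and 0.363, 2.66 and 26.5 in SF. The lowest values rested on few reads (1 read in ISF of Lurie at 96 hours), and the ranges of the fluids overlapped. By 6 days the levels were 0.435, 10.2 and 33.6 in ISF and 0.998, 2.19 and 53.4 in SF, and at 10 days 0.239, 9.00 and 47.1 in ISF and 4.25, 7.97 and 688 in SF.

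At 10 days in SF, 3 horses stood above the others: Dealings had 688 GeTMM (13784 reads), Ollie 251 (5380 reads) and Lurie 112 (1825 reads), while the other 4 horses ranged from 4.25 to 7.97. ISF was lower than SF in 5 of 7 horses at 10 days, and the difference of -2.31 ± 0.93 was not called (FDR = 0.0680). With the horse as a block it was called (FDR = 0.0217), as it was without Moon (-2.94, FDR = 0.0173). Within SF the rise of 2.83 ± 0.90 from 6 to 10 days was not called either (FDR = 0.0521, higher in 6 of 7 horses), but was with the horse as a block (FDR = 0.0157), without Moon (FDR = 0.0470) and without RimRun (FDR = 0.0407). The net change in SF from 0 hours to 10 days was called, at 2.72 ± 0.90 (FDR = 0.00640, higher in 7 of 7 horses). In ISF the net change was 0.41 ± 0.90 (FDR = 0.695).

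CXCL11, the other CXCR3 ligand with a row, was called lower in ISF at 10 days (-2.08 ± 0.57, FDR = 0.00569) and rose in SF from 6 to 10 days (2.38 ± 0.55, FDR = 0.00727), with a lowest, median and highest level of 0, 0.627 and 226 GeTMM in SF at 10 days. Both calls were lost without Ollie (-1.55, FDR = 0.0726, and 1.92, FDR = 0.0861), with voom and with only the groups compared, and the rise in SF also without Lurie (FDR = 0.0637). Of 12 interferon-induced genes tested, CXCL11 among them, none were called at 48 hours, 96 hours and 6 days and 2 (CXCL11 and IRF1) were called lower in ISF at 10 days, with a median log2 fold change of -0.52. These counts lay below the shares of all genes called, 30.2% at 6 days and 20.8% at 10 days. IRF1, a transcription factor of the interferon response, differed by -1.47 ± 0.39 (FDR = 0.00390), a call lost with only the groups compared (FDR = 0.101). In SF at 10 days the mean of this list was 8.39 in Dealings, 6.71 in Ollie and 5.87 in Lurie, and 3.85 to 5.05 in the other 4 horses. Across the deviations of 68 libraries CXCL10 followed that mean with r = 0.86, and the genes most like it were GBP5 (0.891), IFI44 (0.866) and XAF1 (0.866), all known as interferon-induced.

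CXCL12 fell to near 0 in culture and was higher again at later times in some SF cultures. At 0 hours the levels ran from lowest over median to highest as 8.69, 13.8 and 30.7 GeTMM, from 36 to 117 reads per library. The row is short, with a recovered length of 282 bases, so a GeTMM of 1 stood for only a few reads. At 48 hours CXCL12 was at 0 in 4 of 7 ISF libraries, with a highest level of 0.529, and in SF the levels were 0, 0.237 and 2.56. The levels at 96 hours were 0, 0.220 and 0.452 in ISF and 0, 0.703 and 2.43 in SF. Every library at these times lay below every library before culture. The levels at 6 days were 0, 0 and 0.188 in ISF and 0, 0.426 and 10.6 in SF, and at 10 days 0, 0 and 0.651 in ISF and 0, 0.807 and 35.5 in SF. In ISF at 10 days 6 of 7 libraries were at 0, and the only reads were 3 in Moon.

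The log2 fold change of CXCL12 from 0 to 48 hours was -3.78 ± 0.45 in ISF (FDR = 9.40e-11) and -3.38 ± 0.45 in SF (FDR = 3.73e-09), lower in 7 of 7 horses in each. To 10 days the net change was -3.84 ± 0.45 in ISF (FDR = 1.67e-11, lower in 7 of 7 horses). In SF it was -1.91 ± 0.45 (FDR = 1.44e-04), with CXCL12 lower in 5 of 7 horses and higher in 2. Between the fluids the difference was -0.41 ± 0.46 at 48 hours, -0.53 ± 0.43 at 96 hours and -1.0 ± 0.43 at 6 days (FDR = 0.0708, and 0.0487 with the horse as a block, 0.0353 when the SF library of Moon at that time was left out). At 10 days it was -1.92 ± 0.46 (FDR = 0.00148, lower in ISF in 6 of 7 horses and at 0 in both fluids in Catnip). That call was lost when only the groups compared were fitted (FDR = 0.0718). Summed over libraries, SF held 324 CXCL12 reads in 159.9 M at 10 days and ISF 3 in 151.1 M, a ratio of 102 (exact 95% interval 34.6 to 497, counting error only). Of the SF reads, 168 came from Lurie and 126 from Dealings.

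In SF at 10 days the 3 cultures with the most CXCL12 were also the 3 highest in fibroblast or stromal transcripts (COL1A1, COL1A2, COL3A1, DCN and LUM). The mean of this list was 9.39 in Lurie, 6.53 in Dreamer, 4.52 in Dealings and 2.59 in RimRun, and 0.10 to 0.93 in Moon, Catnip and Ollie. The matching CXCL12 levels were 35.5, 3.51, 21.7 and 0.657 GeTMM in Lurie, Dreamer, Dealings and RimRun, and 0 to 0.807 in the others. In ISF at 10 days the list ranged from 0.03 to 0.47 in 6 horses and was 3.38 in Moon, the one ISF library with CXCL12 reads. Before culture the list was at 0.19 to 1.34 while CXCL12 was at 8.69 GeTMM or more, so the high CXCL12 levels at 0 hours stood beside a low list. The 3 genes most like CXCL12 were SFRP1 (r = 0.808), AEBP1 (0.799) and PRRX1 (0.797), with r = 0.74 for the list over 68 libraries. The part of stromal cells in the difference between the fluids was not tested.

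**Figure D3:**
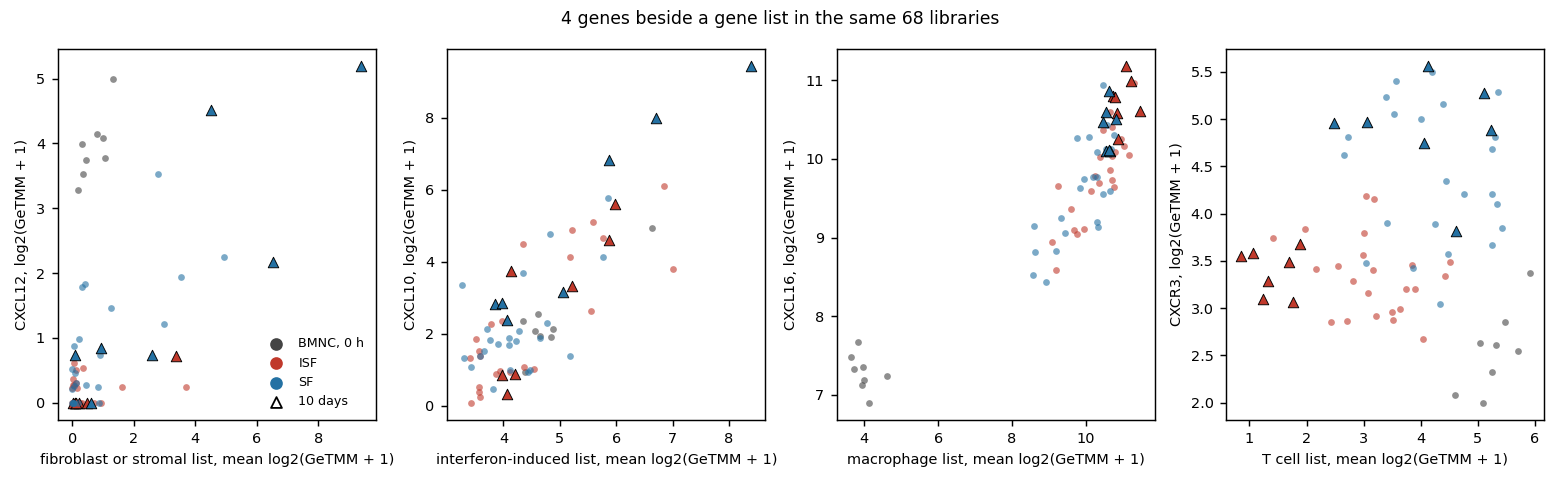
Level of CXCL12, CXCL10, CXCL16 and CXCR3 (vertical axes, log2(GeTMM + 1)) against the mean of a gene list in the same library (horizontal axes), with 1 point per library coloured by fluid and triangles at 10 days. CXCR3 at 10 days was higher in SF, and the T cell list was also higher there (2.48 to 5.22 in SF, 0.85 to 1.89 in ISF), while the 0 hour libraries combined low CXCR3 with a T cell list of 4.59 to 5.91.

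CXCL16 rose in both fluids, and its level per length was high. The lowest, median and highest levels in uncultured BMNC were 118, 155 and 203 GeTMM. At 48 hours they were 383, 548 and 811 in ISF and 347, 454 and 609 in SF. At 96 hours they were 767, 866 and 1092 in ISF and 564, 865 and 1245 in SF. The 0 hour range lay below every cultured library, the only neighbouring groups of the 9, ordered by their median, that did not overlap for any of the 7 genes. At 6 days the levels were 1048, 1270 and 2008 in ISF and 747, 1104 and 1968 in SF, and at 10 days 1229, 1766 and 2314 in ISF and 1095, 1420 and 1866 in SF. By its median GeTMM, a value per length, CXCL16 ranked 942 of the 14570 genes tested before culture, 67 in ISF and 74 in SF at 10 days. The rank rests on the recovered length of its row, 387 bases, which may cover coding sequence only.

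From 0 to 48 hours CXCL16 rose by 1.83 ± 0.17 in ISF (FDR = 4.32e-14) and 1.58 ± 0.17 in SF (FDR = 9.59e-12), in 7 of 7 horses in each. From 48 to 96 hours it rose by 0.69 ± 0.17 in ISF (FDR = 0.00234) and 0.90 ± 0.17 in SF (FDR = 3.57e-05). From 96 hours to 6 days it rose by 0.55 ± 0.17 in ISF (FDR = 0.0316), a call that was lost on leaving out any of 7 of the 8 horses (FDR up to 0.124, without Dreamer). The net rise to 10 days was 3.46 ± 0.17 in ISF (FDR = 7.06e-27) and 3.11 ± 0.17 in SF (FDR = 1.86e-24). ISF minus SF was 0.25 ± 0.18, 0.03 ± 0.17, 0.25 ± 0.17 and 0.35 ± 0.18 at the 4 times and was not called, with 2 SE around the 10 day value reaching from -0.00 to 0.71. Without Moon the 6 day value was called (0.42, FDR = 0.0434). All 7 genes of the macrophage list were called higher at 10 days than at 0 hours in each fluid. Over that span 74.5% of all genes were called in ISF and 69.6% in SF, in either direction. Within groups CXCL16 had r = 0.06 with the list. The genes most like CXCL16 within groups were PLBD2 (r = 0.839), MGAT4B (0.745) and NAGPA (0.727), of which PLBD2 and NAGPA belong to the lysosomal system.

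CXCR3 rose in culture, and rose further in SF than in ISF. Before culture its lowest, median and highest levels were 3.00, 4.99 and 9.37 GeTMM. At 48 hours they were 5.38, 6.96 and 10.2 in ISF and 7.22, 10.9 and 13.9 in SF. By 96 hours they were 6.38, 9.57 and 16.8 in ISF and 13.8, 27.0 and 36.5 in SF. The fluids overlapped by 1 ISF library, that of Moon, at 96 hours. By 6 days the levels were 6.21, 10.3 and 17.2 in ISF and 16.2, 29.7 and 44.2 in SF, and at 10 days 7.38, 10.2 and 11.9 in ISF and 13.1, 30.2 and 46.3 in SF, with no overlap at 10 days. ISF was lower than SF in every horse at each of the 4 times.

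The difference between the fluids for CXCR3 was -0.49 ± 0.22 at 48 hours (unadjusted p = 0.0327, FDR = 0.295), -1.20 ± 0.21 at 96 hours (FDR = 3.89e-05), -1.43 ± 0.21 at 6 days (FDR = 2.62e-07) and -1.50 ± 0.22 at 10 days (FDR = 9.78e-07). The 3 later calls held in all 18 alternatives. The change of the difference from 48 hours to 10 days was -1.01 ± 0.32 and was not called (FDR = 0.0595), but was with the horse as a block (FDR = 0.00429) and without Lurie (FDR = 0.0368). Over time CXCR3 rose in SF by 1.01 ± 0.22 from 0 to 48 hours (FDR = 9.38e-05) and by 1.09 ± 0.22 from 48 to 96 hours (FDR = 6.88e-05), each in 7 of 7 horses. In ISF the rise from 0 to 48 hours was 0.52 ± 0.22 (FDR = 0.0381, 7 of 7 horses), and it was lost under 7 of the alternatives other than the fold limit, without RimRun, Catnip, Dealings or Ollie among them. The net rise was 2.34 ± 0.22 in SF (FDR = 7.95e-15) and 0.84 ± 0.22 in ISF (FDR = 4.48e-04).

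The T cell list (CD3D, CD3E, CD3G, CD2 and LCK) did not follow the rise of CXCR3. It went from 4.59 to 5.91 before culture to 2.73 to 5.29 in SF at 96 hours and 2.16 to 3.90 in ISF, while the median of CXCR3 was higher in both than before culture. Of the 5 T cell genes 0, 0, 5 and 5 were called lower in ISF than in SF at the 4 times and none higher. Their median log2 fold change was -0.50, -0.95, -1.73 and -2.78, where 1.68%, 10.5%, 30.2% and 20.8% of all genes were called. From 48 hours to 10 days the difference moved lower at a called level for all 5, where 2.99% of all genes were called. At 10 days the list ranged from 2.48 to 5.22 in SF and 0.85 to 1.89 in ISF, in the direction of the CXCR3 difference. The part of the list in that difference was not tested. Within groups r was -0.09 over 68 libraries. Genes of other lists were also called lower in ISF at 10 days. These were 4 of 5 natural killer, 4 of 4 B cell and 3 of 3 plasmacytoid dendritic genes, with none higher. The part of these lists in the CXCR3 difference was not tested either. The genes most like CXCR3 within groups were FAM222A (r = 0.692), LY6E (0.650) and TRIM63 (0.635).

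CXCR4 was high before culture and decreased further in ISF than in SF. In uncultured BMNC the lowest, median and highest levels were 308.5, 365 and 616 GeTMM. At 48 hours they were 221, 247 and 368 in ISF and 254, 388 and 472 in SF. The levels at 96 hours were 101, 150.1 and 331 in ISF and 237, 337 and 370 in SF. The lower part of the ISF range, 6 of 8 libraries, lay below every SF library at 96 hours. The levels at 6 days were 29.97, 108 and 160 in ISF and 193, 288 and 413 in SF, with no overlap. At 10 days they were 38.7, 99.3 and 291 in ISF and 186, 231 and 328 in SF, where Catnip was the ISF library inside the SF range. ISF was lower than SF in every horse up to 6 days and in 6 of 7 at 10 days.

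For CXCR4 the difference between the fluids was -0.50 ± 0.29 at 48 hours (FDR = 0.451) and -0.92 ± 0.27 at 96 hours (FDR = 0.0178). It was -1.77 ± 0.27 at 6 days (FDR = 6.21e-07) and -1.28 ± 0.29 at 10 days (FDR = 7.43e-04). The change of the difference from 48 hours to 10 days was -0.78 ± 0.41 and was not called (FDR = 0.335). The call at 96 hours was lost when the 2 doubtful 96 hour libraries were left out (-0.81, FDR = 0.0861) and without the horse Dealings (FDR = 0.0536), Flash (0.0629) or Ollie (0.0503). In ISF, CXCR4 fell from 96 hours to 6 days by 0.99 ± 0.27 (FDR = 0.0161, lower in 6 of 8 horses), which was lost when only the groups compared were fitted (FDR = 0.0941) and without Dealings (0.0639), Dreamer (0.0502), Ollie (0.0964) or RimRun (0.0777). From 0 to 48 hours in ISF the change of -0.63 ± 0.28 had an FDR of 0.0512, and of 0.0449 with the horse as a block, 0.0303 without Moon and 0.0331 without RimRun. From 48 to 96 hours the change of -0.66 ± 0.28 (FDR = 0.0881) was called without Moon (FDR = 0.0360). To 10 days CXCR4 changed by -2.04 ± 0.28 in ISF (FDR = 2.23e-09) and by -0.76 ± 0.28 in SF (FDR = 0.0133), lower in 7 of 7 horses in each. The latter was lost without Lurie (FDR = 0.0579) or Ollie (0.0721).

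The lowest CXCR4 levels in ISF at 6 days were those of Dealings (29.97 GeTMM), Ollie (45.3) and Dreamer (50.3). Dealings also had the lowest neutrophil precursor list of that group (MPO, ELANE, AZU1, LTF, OLFM4 and CEBPE, 0.50 against a median of 4.44). The list ranged from 0.50 to 7.06 in ISF and from 3.58 to 8.90 in SF at 6 days. Of its 6 genes 0, 0, 5 and 3 were called lower in ISF at the 4 times and none higher. At these times 1.68%, 10.5%, 30.2% and 20.8% of all genes were called. The part of the list in the CXCR4 difference was not tested. Within groups r was 0.13 over 68 libraries. The genes most like CXCR4 within groups were ZNF667 (r = 0.630), EGLN3 (0.625), an oxygen-sensing prolyl hydroxylase, and C13H16orf54 (0.622).

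CX3CR1 was low throughout and fell to near 0 in ISF. At 0 hours the levels ran from lowest over median to highest as 2.36, 3.71 and 5.51 GeTMM, from 37 to 115 reads. At 48 hours they were 0.269, 1.59 and 2.49 in ISF and 0.622, 1.91 and 3.32 in SF. At 96 hours they were 0.303, 0.869 and 1.18 in ISF and 0.784, 1.84 and 4.72 in SF. The medians of both fluids lay below the lowest level before culture. At 6 days the levels were 0, 0.323 and 0.769 in ISF and 0.598, 1.15 and 4.13 in SF, and at 10 days 0, 0.0527 and 0.201 in ISF and 0.209, 1.78 and 3.60 in SF, with no overlap at 10 days. In ISF at 10 days 3 of 7 libraries were at 0 and the highest count was 4 reads. Summed over libraries SF held 261 reads and ISF 11, a ratio relative to library totals of 22.4 (exact 95% interval 12.3 to 45.5, counting error only).

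The difference between the fluids for CX3CR1 was -0.17 ± 0.25 at 48 hours, -0.70 ± 0.23 at 96 hours (FDR = 0.0370, lower in ISF in 8 of 8 horses), -0.87 ± 0.23 at 6 days (FDR = 0.00270, 7 of 8 horses) and -1.21 ± 0.25 at 10 days (FDR = 1.74e-04, 7 of 7 horses). The call at 96 hours was the least stable, lost under 10 of 18 alternatives, among them when the 2 doubtful 96 hour libraries were left out (FDR = 0.115), with voom (0.0993) and without Catnip (0.0834), Dealings (0.0849), Dreamer (0.114), Lurie (0.109) or Ollie (0.0671). From 48 hours to 10 days the difference moved by -1.04 ± 0.35, which was not called (FDR = 0.0789). It was called with the horse as a block (FDR = 0.0195) and with library weights (FDR = 0.0261). It was also called with a pseudocount of 0.1 (-2.80, FDR = 0.00708) and with voom (-3.80, FDR = 0.00681). Over time CX3CR1 changed from 0 to 48 hours by -0.97 ± 0.24 in ISF (FDR = 4.61e-04) and -0.80 ± 0.24 in SF (FDR = 0.00440), and to 10 days by -2.14 ± 0.24 in ISF (FDR = 3.51e-12) and -0.93 ± 0.24 in SF (FDR = 4.70e-04). It was lower in 7 of 7 horses in each of these 4 steps.

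The marker list of natural killer cells, which are known to carry CX3CR1, had overlapping ranges in the fluids at 10 days, with lower lowest and highest values in ISF. Of its 5 genes 0, 1, 4 and 4 were called lower in ISF at the 4 times and none higher (against 30.2% of all genes called at 6 days and 20.8% at 10 days), with a median log2 fold change of -0.01, -0.44, -0.73 and -0.87. The list (NCR1, NKG7, KLRD1, PRF1 and EOMES) ranged from 0.61 to 1.16 in ISF and 0.68 to 2.44 in SF, against 2.85 to 3.40 before culture. Catnip, the horse with the highest CX3CR1 in SF at 10 days, also had the highest value of this list in that group. Over the deviations of 68 libraries r was 0.51 with the list, and its part in the CX3CR1 difference was not tested. The genes most like CX3CR1 were TTC28 (r = 0.651), TMEM25 (0.589) and CCKAR (0.569).

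Over time, the counts of the 7 genes called were near the shares of all genes called in most steps. From 0 to 48 hours 4 of 7 genes were called in ISF (against 52.7% of all genes) and 4 in SF (45.4%), CXCL16 and CXCR3 higher and CXCL12 and CX3CR1 lower in each. From 48 to 96 hours 1 was called in ISF (19.0%) and 3 in SF (27.3%), and from 96 hours to 6 days 2 in ISF (6.38%) and 0 in SF (2.05%, with 1 at an unadjusted p under 0.05 and 0 by voom). From 6 to 10 days 0 of 7 were called in either fluid by limma (10.5% in ISF and 4.78% in SF), with 1 and 2 at an unadjusted p under 0.05 and 0 in either by voom. Over the whole span 5 of 7 genes were called in ISF (74.5%) and 7 of 7 in SF (69.6%), shares in which most genes of the table moved. The difference between the fluids changed at a called level between no consecutive times for these genes, with 1, 2 and 1 of 7 at an unadjusted p under 0.05, where 0.0206%, 0% and 0.226% of all genes were called and voom called 0 of 7.

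Other ligands and receptors of the families were also measured. Of 14 other ligands 6 were tested, and of 8 other receptors 6 were tested. Of the 6 ligands tested, 0, 1, 1 and 2 were called higher in ISF at the 4 times and 0, 0, 1 and 1 lower. Of the 6 receptors tested, 0, 0, 1 and 1 were called lower and none higher. In either direction 1.68%, 10.5%, 30.2% and 20.8% of all genes tested were called at these times. CXCL13, the B cell attractant, was higher at 10 days (1.27 ± 0.39, FDR = 0.0129), a call lost without Catnip (0.96, FDR = 0.105) or Dealings (FDR = 0.0535) and with only the groups compared (FDR = 0.0527). PPBP, the platelet chemokine CXCL7, was lower at 6 days (-3.14 ± 0.84, FDR = 0.00286), where its median was 14.2 GeTMM in ISF and 218.5 in SF, a call lost with only the groups compared (FDR = 0.0836). Among the receptors, CXCR6, the receptor for CXCL16, was the only one called, lower in ISF with a difference of -0.66 ± 0.23 at 6 days (FDR = 0.0266) and -1.02 ± 0.25 at 10 days (FDR = 0.00180). The 6 day call was lost on leaving out any of 5 horses (FDR up to 0.0741, without Catnip). Its median at 10 days was 0.285 GeTMM in ISF and 1.60 in SF, while its ligand CXCL16 was at 1766 and 1420. CX3CL1, the ligand of CX3CR1, had no row under its symbol and was not analysed here.

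**Figure D4:**
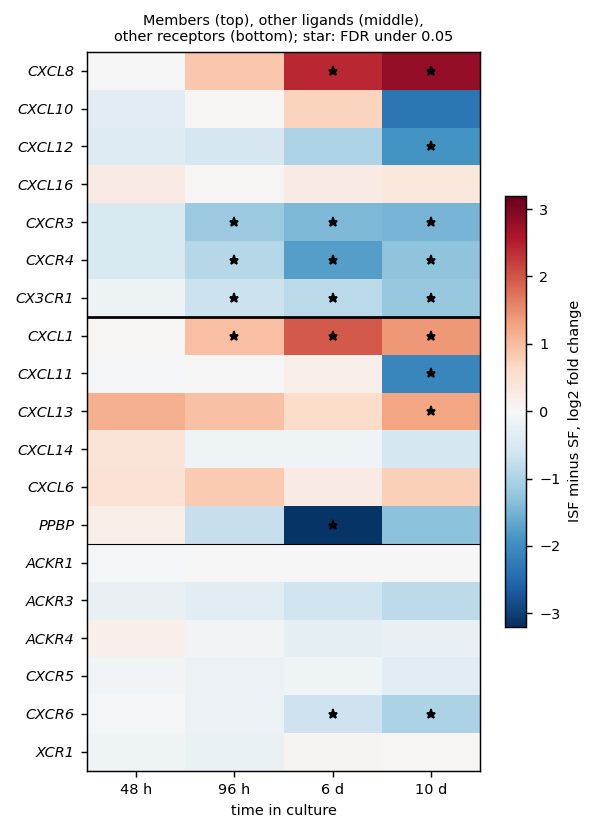
Log2 fold change of ISF against SF (colour, red higher in ISF) at 4 times for the 7 genes, 6 other ligands and 6 other receptors, with a star where the FDR was under 0.05. Stars were red for CXCL8, CXCL1 and CXCL13 and blue for the receptors CXCR3, CXCR4, CX3CR1 and CXCR6 and for CXCL12, CXCL11 and PPBP.

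Genes that act on these ligands or signal behind these receptors were also measured. Of 4 proteases that cleave or shed chemokines, MMP9 was higher in ISF at 6 days (1.57 ± 0.40, FDR = 0.00197) and 10 days (2.58 ± 0.43, FDR = 7.27e-06), and ADAM10, which sheds CXCL16, was called higher at 6 days (0.58 ± 0.23, FDR = 0.0479). The ADAM10 call was lost under 12 of 18 alternatives and rested on 1 library, since without the SF library of Moon the value was 0.14 (FDR = 0.283). DPP4, which trims CXCL10 and CXCL12, was lower at 96 hours (-0.51 ± 0.15, FDR = 0.0197), 6 days (-0.43 ± 0.15, FDR = 0.0240) and 10 days (-0.54 ± 0.16, FDR = 0.0119), with FDRs up to 0.089, 0.0638 and 0.0962 when a horse was left out. DPP4 levels were near 0, with medians of 0.333 GeTMM in ISF and 0.9255 in SF at 96 hours. At 10 days the medians were 0.0495 and 0.332. Of 18 genes of receptor signalling and desensitisation, 1, 1, 6 and 2 were called higher in ISF and 0, 0, 0 and 2 lower, with a list median of -0.23, -0.04, 0.11 and -0.12. These counts were near the shares of all genes called, 1.68%, 10.5%, 30.2% and 20.8%. RGS1, which dampens G protein signals of chemokine receptors, was called higher in ISF at all 4 times, by 1.49 ± 0.39 (FDR = 0.0253), 2.26 ± 0.36 (FDR = 8.55e-06), 2.74 ± 0.36 (FDR = 2.08e-08) and 1.91 ± 0.39 (FDR = 1.64e-04). The 48 hour call was lost without Catnip, Lurie, Ollie or RimRun (FDR up to 0.151, without Lurie). DOCK2, the Rac activator needed for lymphocyte migration, was lower at 10 days (-0.76 ± 0.18, FDR = 0.00129).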

How the data were processed

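RNA-seq was done on 68 libraries of equine BMNC from 8 horses in 9 groups. The authors aligned the reads with STAR 2.7.2a to EquCab3.0, counted reads per gene and deposited GeTMM values, which are RPKM-like values (reads per kilobase, scaled between libraries by the trimmed mean of M values in edgeR). The deposited RPKM-scale values moved in whole-read steps, and whole reads to within 0.02 could be fitted for all 24065 genes above 0. The shortest gene length that fitted was taken. For a gene above 0 in few libraries, such a fit does not show that its reads are right. The recovery was tested on simulated data. The libraries held 15.7 to 36 M reads (median 22.3 M), and intervals on reads cover counting error only.

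Groups came from the sample labels. The test covered the 14570 of 30371 rows that reached 0.5 GeTMM in 7 or more libraries. The main test was limma 3.58.1 in R 4.3.3 on log2(GeTMM + 1) with all 68 libraries, 9 group means and no horse term, two-sided, with Benjamini-Hochberg adjustment over all genes tested. As a horse gave 1 library per group, p-values rest on the spread between horses within groups, pooled over the 9 groups. They treat the libraries of a horse as independent and do not measure the spread of differences within horses. The same horse supplied both fluids and all times, so replicate names pair the samples: the deviations of its ISF and SF libraries from their group means correlated above 0.1 in 26 of 30 pairs (lowest -0.22, median 0.36, highest 0.56), against a median of -0.05 over 196 pairs of different horses. Alternatives were a pseudocount of 0.1, no filter, the horse as a block, only the groups compared, library weights, median-of-ratios scaling, voom on recovered reads, the libraries that stood apart left out, each horse left out, and a fold limit (an absolute log2 fold change of 1 or more).

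All genes matched by symbol were reported, with the 3 genes most correlated with each over deviations from group means. The genes, lists and tests were chosen with earlier results of these data known. CXCR2 was not analysed here. A monocyte marker list is not reported here. Figures were drawn with matplotlib 3.10.9.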

Additional observations from a re-analysis of the deposited data

Results flagged for a closer look

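Of 63 groups of values (7 genes in 9 groups, as log2(GeTMM + 1)), 4 held a library farther from the others than Dixon's 95% limit allows. Chance gives about 1 in 20, and 4 of 63 is near that share. CXCL8 in SF at 6 days was 24.48 GeTMM in Flash against a group median of 4.84. CXCL10 before culture was 29.78 GeTMM in Dealings against a median of 3.28, and in SF at 48 hours it was 16.62 GeTMM in Ollie against 2.23. CXCL12 in ISF at 10 days was 0.651 GeTMM in Moon, from 3 reads, with the other 6 libraries at 0. Beside libraries all at 0, any level above 0 would have been flagged, so that flag carries no weight. The difference of CXCL8 between ISF and SF was larger at 10 days than at 48 hours by 2.81 on the log2 scale (limma interaction, FDR = 0.0114).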

How the results depend on the processing

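Of 63 values reported for single genes, 39 were called, and over 18 alternatives each (702 checks) 0 of the called values changed sign and 52 checks lost the call. Of the 39, 24 were called under every alternative, and 31 under every alternative but the fold limit. With the horse as a replicate block all 39 stayed called and 6 more were called, each given beside its result, so the block changed no other call. The count at 96 hours went from 3 to 1 when the ISF libraries of Dealings and Dreamer were left out, to 1 with a fold limit of 1 on the log2 scale, and ranged from 1 to 3 with a horse left out. The count of changes within ISF between consecutive times went from 7 to 2 with that fold limit and ranged from 4 to 9 with a horse left out. The count of changes over time in the difference between the fluids went from 1 to 2 with a pseudocount of 0.1, with only the groups compared, with voom and without the SF library of Moon, to 3 with the replicate block or library weights, and ranged from 0 to 2 with a horse left out, with 0 without Catnip, Dreamer or RimRun. The values that turned sign were not called: CXCL8 at 48 hours (-0.00, and -0.26 to 0.33 with a horse left out), CXCL10 at 96 hours (0.05, with -0.28 at a pseudocount of 0.1, -0.10 with library weights, -0.52 with voom, -0.40 when those ISF libraries were left out, and -0.40 to 0.37 with a horse left out) and CXCL16 at 96 hours (0.03, with -0.03 without those ISF libraries and -0.04 to 0.12 with a horse left out). The cause of these changes was not tested. Depth limits CXCL12 and CX3CR1 in ISF at 10 days, which rested on 3 and 11 reads in 151.1 M.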

Other observations

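Some horses lay at the same end of a gene's range in most of the 8 culture groups. RimRun had the lowest CXCL10 in 5 of 8, Lurie the lowest CXCR3 in 6 of 8, and Catnip the highest CX3CR1 in 5 of 8. Within groups, over 68 libraries, CXCL16 had r = -0.54 with the cell cycle list (TOP2A, CCNB1, BUB1 and CDK1) and r = -0.49 with CX3CR1, as a description of libraries that share horses.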
